A study of Rattus norvegicus with 6 samples.

Results

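The interferon-stimulated genes and RNA sensors described here are 43 named genes, picked by symbol, and 40 of them had a row among the 19825 genes of the count table. Cmpk2, Herc6 and Rigi had none. Rigi is the current name of Ddx58, which had a row under the older symbol. The libraries came from H9C2, a myoblast line derived from the heart of a rat embryo and labelled as cardiomyocytes. In 3 libraries (siPUM2) the RNA-binding protein PUM2 was knocked down with a transfected small interfering RNA (siRNA). In the other 3 (NC) the cells were transfected with an empty vector. By these labels NC differed from siPUM2 in the kind of nucleic acid as well as in PUM2. Effects of the siRNA as RNA, of the vector in NC and of lower PUM2 therefore cannot be told apart. All 6 libraries came from transfected cells, so a response common to both transfections was not measured. The question put to these genes was whether the transfected RNA had set off an innate response.

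Double-stranded RNA is detected in the endosome by TLR3 and in the cytosol by RIG-I (gene Ddx58), MDA5 (Ifih1), PKR (Eif2ak2) and the oligoadenylate synthetases. RIG-I and MDA5 signal through the adaptor MAVS and TLR3 through TICAM1, and both routes activate the transcription factor IRF3, which drives interferon beta. Secreted interferon then acts through its receptor, JAK1, TYK2, STAT2 and IRF9 to induce a large set of antiviral genes, many with an interferon-stimulated response element (ISRE) in the promoter. Long double-stranded RNA is a strong trigger, and an siRNA can also be one, depending on its ends, its sequence and its delivery.

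The libraries held 27704702 to 29278049 counts in siPUM2 and 27997107 to 30579237 counts in NC. A single count equalled 0.0326 to 0.0360 CPM (a gene's counts relative to all counts of its library, scaled with TMM factors). Pum2 was at 127, 126 and 120 CPM in siPUM2, against 223, 228 and 225 CPM in NC (log2 fold change -0.86 ± 0.0279 SE, adjusted p = 9.23e-19, edgeR's quasi-likelihood test). Of 7 muscle and myoblast markers 6 had a row. Myod1 (35.1 to 39.9 FPKM), Cdh15 (52.5 to 63.1 FPKM), Des (10.8 to 13.0 FPKM) and Acta1 (8.84 to 10.8 FPKM) were present in all 6 libraries, and Chrna1 was at 0.21 FPKM or less. Myog, a factor of muscle differentiation, was at 5.36 to 5.92 FPKM in siPUM2 and 9.74 to 14.9 FPKM in NC (2.18-fold lower in siPUM2, adjusted p = 1.86e-09, edgeR). The fibroblast markers Col1a1 (1184 to 1296 FPKM), Col1a2 (1535 to 1580 FPKM) and Thy1 (348 to 357 FPKM in siPUM2 and 283 to 288 FPKM in NC) were high, and Pdgfra, Dcn and Lum were at 0.10 FPKM or less. Of the cardiomyocyte markers, Myh6, Myh7, Actc1, Tnni3 and Myl2 were at 0.16 FPKM or less in every library and Nppa had no row, while Nkx2-5 was at 8.84 to 11.5 FPKM and Nppb at 1.83 to 3.53 FPKM. Of 10 leukocyte markers 7 had a row, with a summed level of 42.3 to 44.3 CPM in siPUM2 and 40.05 to 40.8 CPM in NC, nearly all of it Cd14, followed by Cd3e (1.36 to 2.11 FPKM). Itgam and Lyz2 were at 0.05 FPKM or less in every library, and Ptprc had no row. The part of these marker differences in the results was not tested. Whether replicates were grown as separate cultures is not labelled, and the p-values therefore speak only to the spread among these 6 samples, part of which may be technical. In bulk RNA, fewer cells that express a gene and less of its RNA per cell cannot be told apart.

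Most promoters of these genes held the letters of the ISRE core. Windows of 300 bases, 250 before and 50 after the gene start, were matched for 29 of the 40 genes (RefSeq, build GRCr8), and 20 of them (69.0%) held GAAA, any 2 bases and GAAA again (TTTC, any 2 bases and TTTC where it lies on the other strand). These letters were in 3.92% of all 33469 windows of that length. They were in 10 of 13 windows of genes under 1 FPKM and in 10 of 16 windows of genes at 1 FPKM or more. The following stretches of 30 bases give the match nearest the gene start, in capitals, read on the strand that spells GAAA. The first 6 belong to genes with at least 1 FPKM and the last 4 to genes with almost no reads, so that the element can be compared between them.
Isg20, chr1:142239957-142239986, plus strand: taatgaaccaGAAACTGAAActaaaacggc
B2m, chr3:129549170-129549199, plus strand: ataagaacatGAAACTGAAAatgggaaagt
Irf7, chr1:205800073-205800102, plus strand: tgcgtctcggGAAAATGAAAcctaaactgt
Eif2ak2, chr6:21941128-21941157, plus strand: agtccgccggGAAAACGAAAcagagagaac
Tap1, chr20:4668645-4668674, plus strand: agaggaagaaGAAACCGAAAgcagccaccg
Gbp2, chr2:234005686-234005715, minus strand: ttaagacaatGAAAGTGAAActaaaaaact
Ifit3, chr1:241527272-241527301, minus strand: gtggaaactaGAAACTGAAAcagacttaaa
Rsad2, chr6:48788248-48788277, plus strand: tctgttttctGAAAATGAAAgttgaaccag
Oas3, chr12:41439627-41439656, plus strand: gcagagaggaGAAAACGAAAgtgaatgatc
Gbp5, chr2:233910933-233910962, minus strand: cctctaaactGAAATTGAAActacacaagt
The same core, GAAACTGAAA, stood in Isg20 and B2m, which were expressed, and in Ifit3, which had 0 to 4 counts in every library. It also stood in Ifi44 (mean 1.11 FPKM), Oas1b (0.473 FPKM), Oasl2 (0.0833 FPKM) and Oas1a (0.0783 FPKM), whose stretches are not shown. Irf7, at 6.22 FPKM in siPUM2 and 4.83 FPKM in NC, shared GAAAATGAAA with Rsad2, which had 0 to 2 counts, and with Ifi44l, which had 0 to 1. A match is a run of letters only, and nothing was measured about what binds there.

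The gamma-activated core TTCNNNGAA, which matches the same positions on both strands, was in 6 of the 29 windows (20.7%) and in 8.87% of all windows. Irf1 and Irf9 held it and held no ISRE core. Irf3, Stat2, Parp9, Ifit1bl, Mx1, Oasl and Tlr3 held neither core in the window. Of the 5 called genes with a window, B2m, Irf7 and Isg20 held the ISRE core and Irf3 and Parp9 did not. Whole windows are shown for Isg20, which was expressed and higher in siPUM2, for Irf3, which was higher without an ISRE core, and for Rsad2, which was close to silent with one. They are written on the strand of the gene, with the ISRE core of either orientation in capitals.
Isg20, chr1:142239809-142240108, plus strand: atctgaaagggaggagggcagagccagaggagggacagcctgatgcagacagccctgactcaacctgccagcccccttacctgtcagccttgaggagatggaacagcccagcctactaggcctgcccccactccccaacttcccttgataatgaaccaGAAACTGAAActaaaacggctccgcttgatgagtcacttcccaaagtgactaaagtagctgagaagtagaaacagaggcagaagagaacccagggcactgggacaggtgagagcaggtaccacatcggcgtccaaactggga
Irf3, chr1:104616358-104616657, plus strand: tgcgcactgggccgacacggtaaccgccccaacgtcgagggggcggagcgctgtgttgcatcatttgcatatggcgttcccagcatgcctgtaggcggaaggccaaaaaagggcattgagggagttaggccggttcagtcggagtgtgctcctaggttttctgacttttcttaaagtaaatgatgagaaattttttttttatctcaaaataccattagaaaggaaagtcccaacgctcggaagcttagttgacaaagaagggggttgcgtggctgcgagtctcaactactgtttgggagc
Rsad2, chr6:48788071-48788370, minus strand: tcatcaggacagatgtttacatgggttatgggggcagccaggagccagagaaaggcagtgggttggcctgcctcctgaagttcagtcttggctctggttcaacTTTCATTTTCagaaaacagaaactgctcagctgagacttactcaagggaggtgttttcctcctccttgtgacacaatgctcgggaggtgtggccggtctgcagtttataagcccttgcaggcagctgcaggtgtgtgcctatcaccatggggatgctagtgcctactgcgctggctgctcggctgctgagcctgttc

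**Figure D1:**
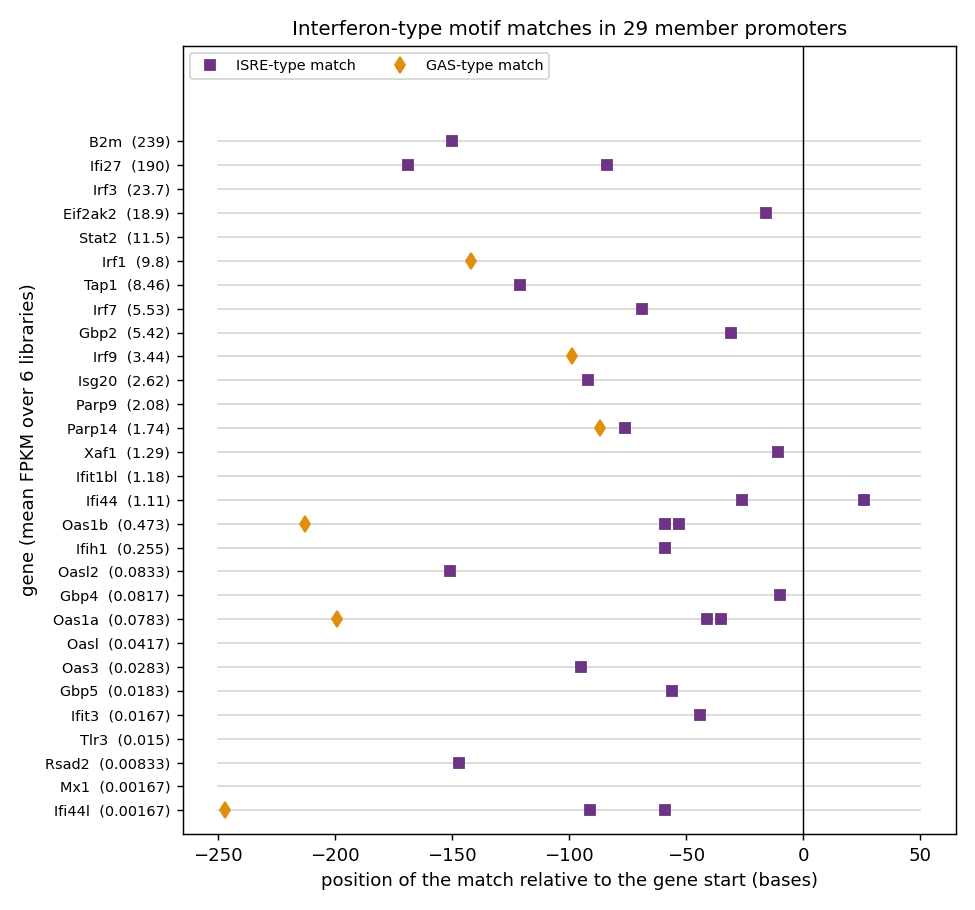
Position of each match to the ISRE core (squares) and the gamma-activated core (diamonds) relative to the gene start, in bases, in the 29 promoter windows. Genes run down the page by mean FPKM over the 6 libraries, given in brackets, and squares occur among the highest and the lowest genes alike, in 10 of 16 windows at 1 FPKM or more and 10 of 13 below it.

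Most of these genes were expressed at a low level in both groups. The mean over the 6 libraries was under 1 FPKM for 23 of the 40, at least 1 FPKM for 17 and at least 10 FPKM for 5. Of the 19825 genes of the count table, 10259 averaged at least 1 FPKM, so low levels were common outside this list too. The median was 5.36 FPKM over the genes tested, a set that leaves out 15 of the 40 for low counts. B2m, the light chain of MHC class I, averaged 257 ± 2.18 FPKM in siPUM2 and 221 ± 3.62 FPKM in NC (SD, n = 3 each), which placed it at or above 97.4% of tested genes. Ifi27, a mitochondrial interferon-induced protein, averaged 197 ± 22.8 FPKM in siPUM2 and 182 ± 17.0 FPKM in NC, at or above 96.9%. Irf3 (79.1%), Eif2ak2 (75.6%) and Stat2 (66.1%) also lay in the upper part of that order. Isg15, the ubiquitin-like modifier, lay at 15.0% of it, Ifih1 at 8.76% and Ifit1 at 8.40%.

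**Figure D2:**
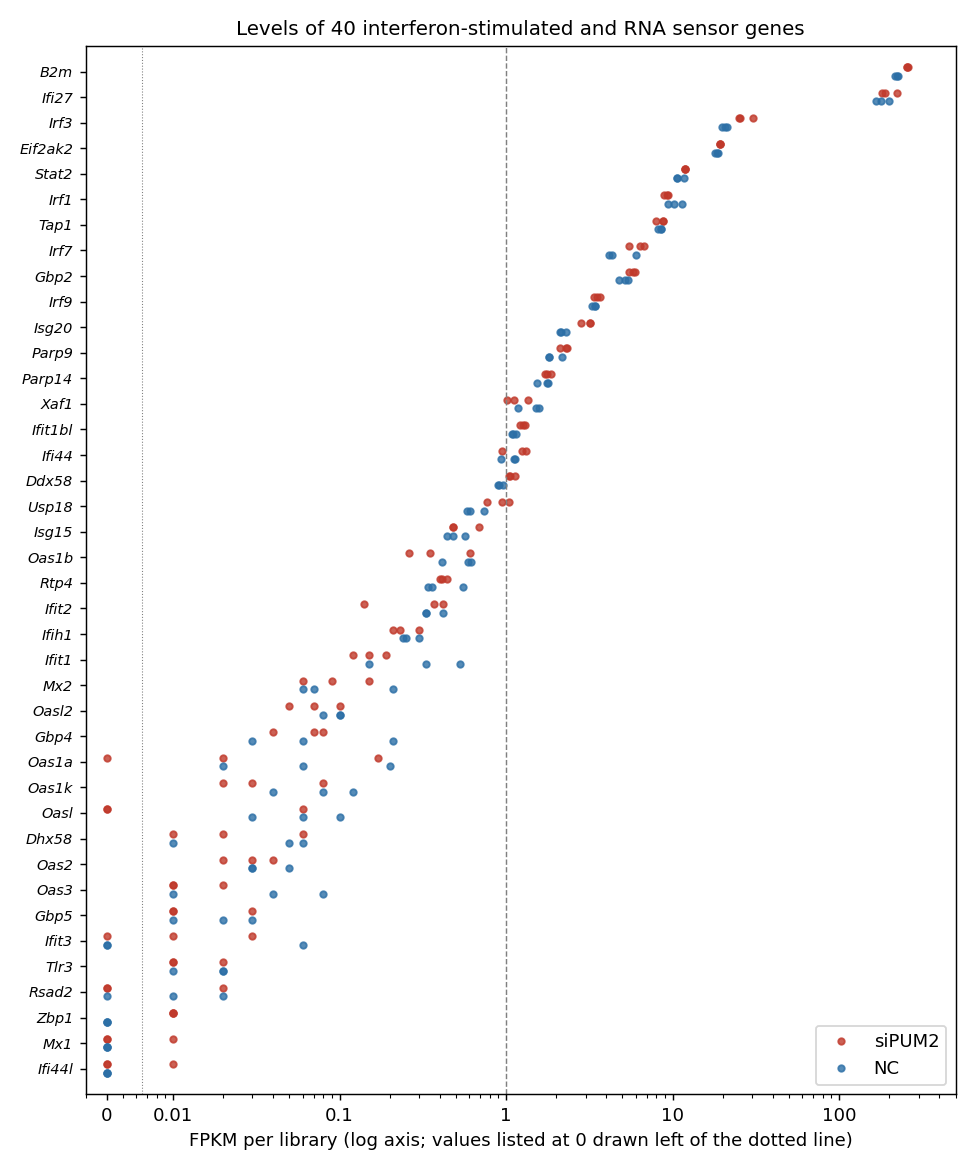
FPKM in each library for the 40 genes with a row, on a log axis, with genes in order of their mean and values listed at 0 left of the dotted line. siPUM2 points are red and NC points blue, and the dashed line is at 1 FPKM, with 23 genes averaging below it.

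Several interferon-stimulated genes had almost no counts in either group. Mx1, a dynamin-like GTPase that blocks influenza virus, had 0, 0 and 1 counts in siPUM2 and no count in the NC libraries. Rsad2 (viperin) had 2, 0 and 0 counts in siPUM2, against 0, 2 and 1 counts in NC. Ifit3, which binds and stabilises IFIT1 in human cells, had 0, 2 and 1 counts in siPUM2, against 0, 0 and 4 counts in NC. No group stood clear of the other in these genes, and 6 of the 40 had 3 counts or fewer in every library. Ifi44l had a single count in all, in siPUM2 1.

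Of the 40 genes, 25 had enough counts to be tested and 15 did not. Of the 25, 5 were called higher in siPUM2, 1 was called lower and 19 were not called, so 24% were called against 28.4% of all 12985 genes tested (15.1% higher and 13.3% lower). In 10 of the 25 the siPUM2 and NC libraries were fully apart, against 39.9% of all genes tested. The median log2 fold change was 0.12 over the 25 genes, of which 17 were above 0, and 0.001 over all genes tested. The upper bound of the 95% interval lay below a 2-fold rise for all 25 genes and below a 1.5-fold rise for 21 of them. Such bounds were not counted over all genes. Of all 12985 genes tested, 236 were called with a change of 1.5-fold or more in either direction, so large changes were few outside this list too. The 15 untested genes held 0 to 19 counts in a library. Their summed level was 1.14 to 1.48 CPM in siPUM2 (32 to 42 counts) and 1.76 to 2.36 CPM in NC (53 to 66 counts). In NC 1, Gbp4 held 19 of these counts and Oas3 held 11. Of these 15, 12 had the lower raw summed count in siPUM2 and 3 the higher. That division was not counted for the other genes removed by the filter, so no background stands beside it. In the edgeR fit with no filter none of the 15 was called, with 1 (Oas3) at an unadjusted p under 0.05.

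**Figure D3:**
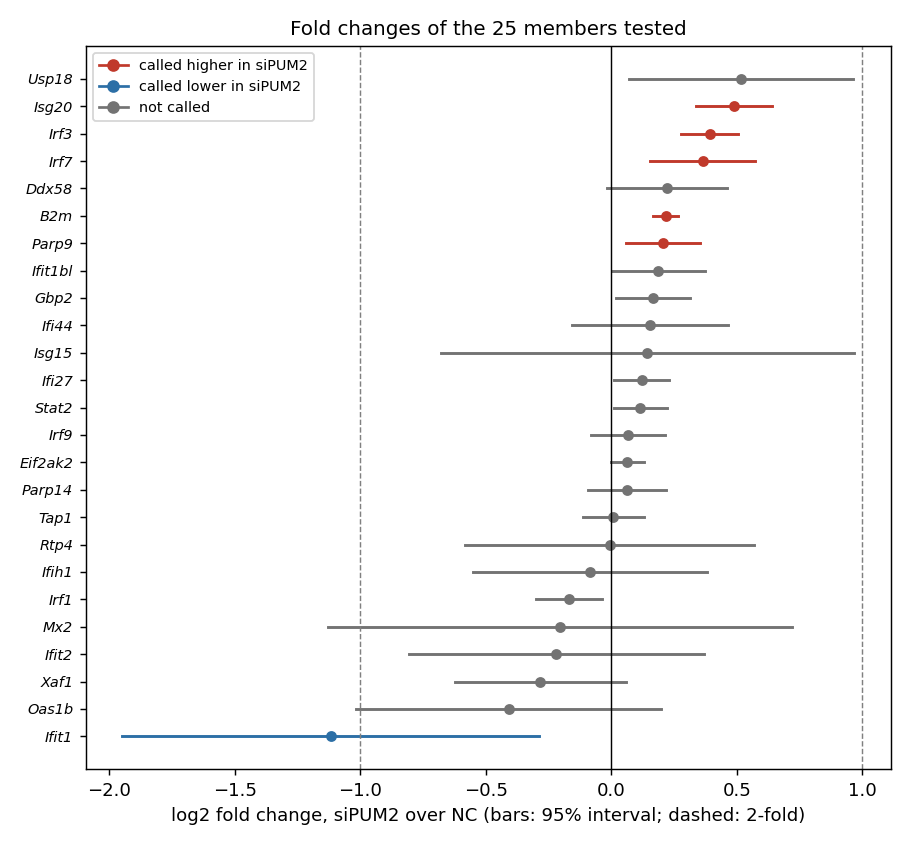
Log2 fold change, siPUM2 over NC, of the 25 tested genes with 95% intervals from edgeR's quasi-likelihood fit. Red marks the 5 genes called higher in siPUM2, blue the 1 called lower and grey the 19 not called, and no interval reaches the dashed line of a 2-fold rise.

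**Figure D4:**
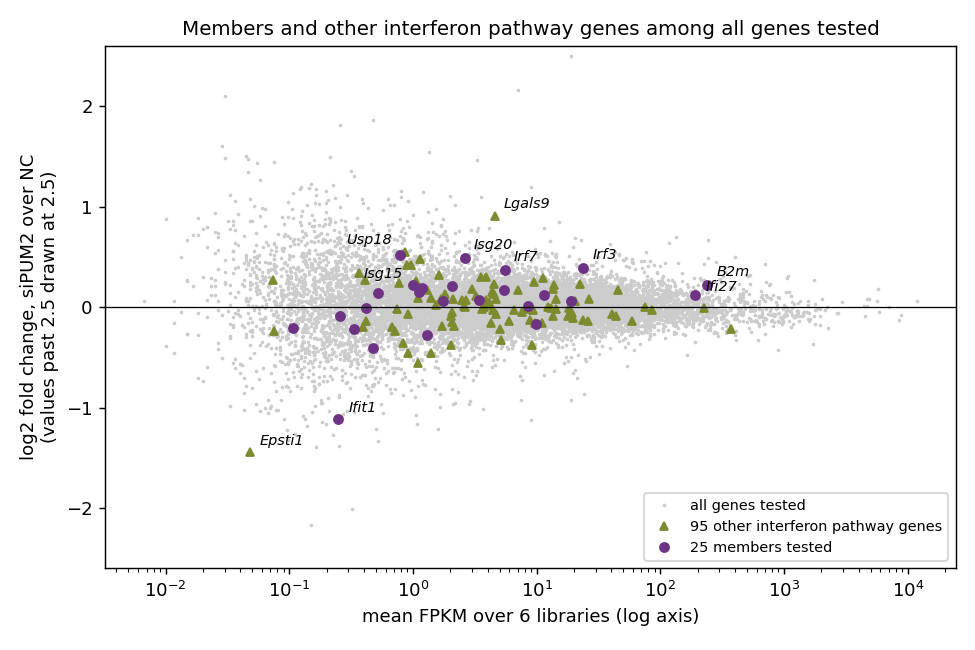
Log2 fold change, siPUM2 over NC, against mean FPKM on a log axis for all 12985 tested genes (grey, values past 2.5 drawn at 2.5), with the 25 tested genes as purple circles and 95 other interferon pathway genes as green triangles. The purple circles lie between -1.12 and 0.52, among the grey points.

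None of the 3 sensors tested was called by edgeR, DESeq2 or limma voom, and 1 (Eif2ak2) had an unadjusted p under 0.05 in edgeR. Of all genes tested, edgeR called 28.4%, and in 39.9% the groups were fully apart. A set of 3 sensors is too small to be set against those shares. Eif2ak2 (chromosome 6), the kinase PKR that halts translation on double-stranded RNA, was the highest of the 3 sensors. It was at 84.2, 84.0 and 85.2 CPM in siPUM2, against 81.0, 79.3 and 82.0 CPM in NC. Every siPUM2 library lay above every NC library, yet the difference was small (log2 fold change 0.07, 95% interval of the fold 1.0 to 1.09, adjusted p = 0.122, edgeR's quasi-likelihood test, as for all adjusted p-values in this account unless another is named). Ddx58 (chromosome 5), which senses RNA with a 5′ triphosphate, was at 6.01, 5.62 and 5.56 CPM in siPUM2, against 4.80, 4.84 and 5.09 CPM in NC. Here too the groups did not overlap, with a fold of 1.17 (0.989 to 1.38) and an adjusted p of 0.161. Ifih1 (chromosome 3), which senses long double-stranded RNA, was at 1.35, 1.73 and 1.20 CPM in siPUM2, against 1.72, 1.42 and 1.40 CPM in NC. The groups overlapped, and the interval of the fold, 0.683 to 1.30, spanned 1 (adjusted p = 0.829).

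The other sensors had too few counts for a test. Tlr3 had 3, 1 and 2 counts in siPUM2, against 3, 3 and 1 in NC. Dhx58 (LGP2), a regulator of RIG-I and MDA5, had 2, 5 and 1 counts in siPUM2, against 5, 1 and 4 in NC. Zbp1, which binds left-handed nucleic acids and starts necroptosis, had 1, 2 and 1 counts in siPUM2 and no count in NC, so that its groups were apart by 1 count. These values are at the level of single reads, and Tlr3 was thus hardly detectable in either group at this depth.

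The oligoadenylate synthetase family includes enzymes that make the second messenger that switches on RNase L, though not every member need do so. Its 7 genes here all averaged under 1 FPKM, and 1 of the 7 was tested. Oas1b (chromosome 12) was at 0.783, 0.576 and 1.37 CPM in siPUM2, against 1.32, 0.928 and 1.40 CPM in NC. The groups overlapped, and the fold was 0.754 (0.495 to 1.15, adjusted p = 0.334). Oas2 had 9, 8 and 4 counts in siPUM2, against 8, 9 and 13 in NC, a ratio of 0.731 with a counting interval of 0.398 to 1.32. Oas3 had 1, 1 and 3 counts in siPUM2, against 11, 6 and 2 in NC. The ratio of its sums was 0.275 (counting interval 0.0802 to 0.761), and the groups overlapped. The counting interval leaves out the spread between libraries, and in the fit with no filter Oas3 had an adjusted p of 0.166. Oas1a had 1, 0 and 8 counts in siPUM2, against 1, 3 and 10 in NC. Oas1k, Oasl and Oasl2 held 0 to 9 counts in siPUM2 libraries and 2 to 10 counts in NC libraries. Oas1a, Oas1b and Oas1k are close copies whose reads the counting may have split, so their single values are uncertain.

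Among the 5 transcription factors Irf3 and Irf7 were called higher in siPUM2 and the other 3 were not called. That is 40% called of a small group, against 28.4% of all genes tested. Irf3 (chromosome 1), the factor that RNA sensing activates by phosphorylation, was at 59.2, 70.1 and 58.0 CPM in siPUM2, against 48.9, 45.8 and 47.9 CPM in NC. All siPUM2 libraries lay above all NC libraries, with siPUM2 2 highest. It rose 1.31-fold (1.21 to 1.42, log2 fold change 0.39 ± 0.0553 SE, adjusted p = 2.82e-06). The span of Irf3 overlaps that of Bcl2l12, and without a stated strand setting their reads may not be separated. Bcl2l12 was at 15.7, 14.9 and 15.0 CPM in siPUM2, against 15.2, 17.5 and 16.4 CPM in NC, and was not called (log2 fold change -0.11, adjusted p = 0.277).

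Irf7 (chromosome 1), the interferon-induced factor that amplifies the response, was at 15.2, 13.1 and 16.1 CPM in siPUM2, against 9.91, 10.2 and 14.3 CPM in NC. NC 3 lay above siPUM2 2, so the groups overlapped. It rose 1.29-fold (1.11 to 1.49, log2 fold change 0.36 ± 0.102 SE, adjusted p = 0.00762). The call was lost without NC 1 (adjusted p = 0.0778) and without NC 2 (adjusted p = 0.0743).

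STAT2 and IRF9 belong to the complex that binds the ISRE. Stat2 (chromosome 7) was at 46.0, 46.3 and 46.2 CPM in siPUM2, against 41.1, 41.4 and 45.2 CPM in NC. The groups did not overlap, NC 3 was close to the siPUM2 libraries, and Stat2 was not called (log2 fold change 0.12, adjusted p = 0.0925). Without NC 3 it was called (adjusted p = 0.0349). Irf9 (chromosome 15) was at 13.5, 13.9 and 14.6 CPM in siPUM2, against 13.0, 13.6 and 13.4 CPM in NC, with overlapping groups and an adjusted p of 0.537. Irf1 (chromosome 10), an early target of interferon gamma and of NF-kB, was at 23.7, 25 and 24.8 CPM in siPUM2, against 25.1, 27.1 and 30.3 CPM in NC. All siPUM2 libraries lay below all NC libraries, and with a log2 fold change of -0.17 its adjusted p of 0.05004 fell just short of the threshold. It was called lower in 8 of the alternatives, with adjusted p-values of 0.00675 to 0.0492.

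**Figure D5:**
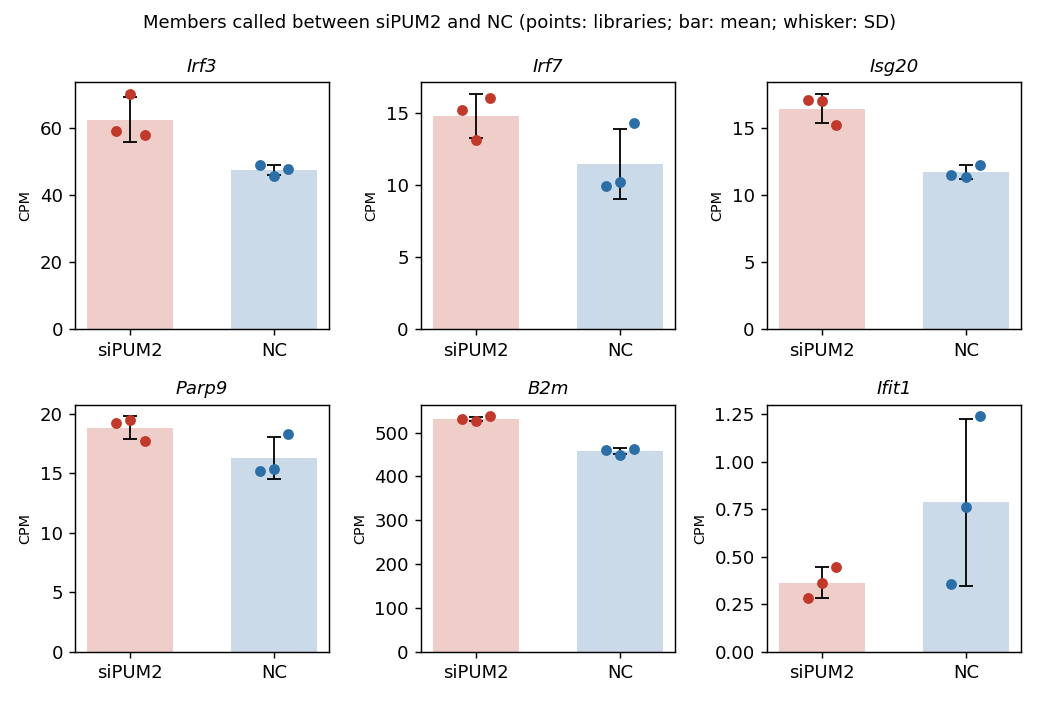
CPM (TMM-scaled) in each library of the 6 called genes, siPUM2 left and NC right, with bars for the mean and whiskers for the SD (n = 3 each). The groups are apart for Irf3, Isg20 and B2m and overlap for Irf7, Parp9 and Ifit1.

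Of 6 antiviral effectors tested Isg20 was called (16.7%, against 28.4% of all genes tested), and the highly expressed Ifi27 was not. Isg20 (chromosome 1), an exonuclease that degrades RNA, was at 17.1, 17.1 and 15.2 CPM in siPUM2, against 11.5, 11.3 and 12.3 CPM in NC. The groups were well apart. It rose 1.40-fold (1.26 to 1.56, log2 fold change 0.49 ± 0.0743 SE, adjusted p = 8.96e-06). Per length it averaged 3.06 FPKM in siPUM2 and 2.19 FPKM in NC. Ifi27 (chromosome 6) was at 176, 184 and 219 CPM in siPUM2, against 175, 162 and 195 CPM in NC. The groups overlapped and replicate 3 was the highest in each (log2 fold change 0.12, adjusted p = 0.0914). It was called without siPUM2 1 (adjusted p = 0.00691), without NC 3 (adjusted p = 0.00970) and with no filter on low counts (adjusted p = 0.000291).

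The remaining effectors were low. Ifi44 (chromosome 2), induced by interferon in many cell types, was at 4.16, 3.13 and 4.43 CPM in siPUM2, against 3.76, 3.11 and 3.69 CPM in NC (adjusted p = 0.492). Xaf1, a pro-apoptotic gene, was at 2.6, 2.38 and 3.16 CPM in siPUM2, against 3.65, 2.75 and 3.52 CPM in NC (adjusted p = 0.221). In both the groups overlapped. Mx2 had an adjusted p of 0.783 and Rtp4 of 0.993, both at a mean under 1 CPM. The spans of Xaf1 and Fbxo39 and those of Rtp4 and Masp1 overlap, so the reads of these pairs may be mixed.

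The IFIT proteins bind foreign RNA at its 5′ end. Of 3 IFIT genes tested 1 was called, in the downward direction (33.3%, against 28.4% of all genes tested). Ifit1 (chromosome 1) had 8, 10 and 13 counts in siPUM2, against 10, 23 and 38 counts in NC, or 0.285, 0.360 and 0.446 CPM against 0.358, 0.762 and 1.24 CPM. The groups overlapped and NC 3 was far above NC 1. It fell, with a log2 fold change of -1.12 ± 0.405 SE (2.17-fold lower, adjusted p = 0.0384). The call was lost without NC 3 (log2 fold change -0.63, adjusted p = 0.339), without NC 2 (0.0736), without siPUM2 1 (0.124) and without siPUM2 2 (0.10).

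Ifit1bl, a neighbouring copy whose span overlaps Ifit1, was at 9.47, 9.72 and 9.07 CPM in siPUM2, against 8.09, 8.55 and 8.15 CPM in NC. Its groups did not overlap, but it was not called (log2 fold change 0.19, adjusted p = 0.122), and how reads were divided between these copies is uncertain. Ifit2 was at 0.534, 1.44 and 1.61 CPM in siPUM2, against 1.29, 1.26 and 1.63 CPM in NC. Its groups overlapped, with siPUM2 1 apart from the other 5 libraries (adjusted p = 0.625).

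Of 4 tested genes of the ISG15 system Parp9 was called (25%, against 28.4% of all genes tested) and Isg15 itself was not. Isg15 (chromosome 5) had 10, 10 and 15 counts in siPUM2, against 12, 10 and 11 counts in NC. The groups overlapped, the fold was 1.11 (0.625 to 1.96) and the adjusted p was 0.835. Usp18 (chromosome 4), which removes ISG15 and damps the interferon receptor, was at 1.96, 1.58 and 2.16 CPM in siPUM2, against 1.25, 1.19 and 1.53 CPM in NC. The groups did not overlap. Its fold of 1.43 (1.05 to 1.95) was the highest of the 25 genes and was not called (adjusted p = 0.0756). It was called on log2(FPKM + 0.1) (adjusted p = 0.0405, limma).

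Parp9 (chromosome 11), which forms a complex with the ubiquitin ligase DTX3L, was at 19.2, 19.5 and 17.7 CPM in siPUM2, against 15.2, 15.3 and 18.3 CPM in NC. NC 3 lay above siPUM2 3, so the groups overlapped. It rose 1.15-fold (1.04 to 1.28, log2 fold change 0.21 ± 0.0722 SE, adjusted p = 0.0307). The call was lost without siPUM2 1 (0.0908), siPUM2 2 (0.127), NC 1 (0.154) or NC 2 (0.152). Dtx3l, whose span overlaps Parp9 and which is named because of that, after its values were seen, was at 10.2, 9.08 and 10.1 CPM in siPUM2, against 7.30, 7.85 and 8.38 CPM in NC (1.25-fold, adjusted p = 0.0101). Parp14, also on chromosome 11, was at 13.8, 14.0 and 14.9 CPM in siPUM2, against 12.3, 14.3 and 14.2 CPM in NC, with overlapping groups and an adjusted p of 0.577.

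Of the guanylate-binding proteins, GTPases that attack the vacuoles of intracellular pathogens, Gbp2 alone had enough counts. It was at 14.8, 15.7 and 16.1 CPM in siPUM2, against 14.0, 13.0 and 14.5 CPM in NC. The groups did not overlap, and the gene was not called (log2 fold change 0.17, adjusted p = 0.0818). Gbp4 had 4, 7 and 7 counts in siPUM2, against 19, 6 and 3 in NC, and Gbp5 had 1, 1 and 3 counts in siPUM2, against 1, 3 and 2 in NC.

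Of the 2 antigen presentation genes B2m rose and Tap1 was not called (50% called, against 28.4% of all genes tested). B2m (chromosome 3) was at 531, 526 and 537 CPM in siPUM2, against 460, 449 and 462 CPM in NC. The spread within each group was small beside the gap between them. It rose 1.16-fold (1.12 to 1.20, log2 fold change 0.22 ± 0.0245 SE, adjusted p = 7.5e-08). Tap1 (chromosome 20), a subunit of the peptide transporter that loads MHC class I, was at 23.9, 26.6 and 26.4 CPM in siPUM2, against 25.8, 24.8 and 25.8 CPM in NC. Its groups overlapped and its log2 fold change was 0.01 (adjusted p = 0.934).

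Of 126 other names of the pathway, 107 had a row and 95 were tested. Among these 16 were called higher, 13 were called lower and 66 were not called, so 30.5% were called against 28.4% of all genes tested, and their median log2 fold change was -0.01. No row was present for Ifnb1, Ifna1, Ifna4, Ifnk, Ifne, Ifnl1, Ifnl3, Ccl5, Tnf, Il1a or Il1b. These interferons, and several cytokines that RNA sensing induces, were thus not analysed here. Ifng had a row, averaged 0.01 FPKM and was not tested. Il15, a cytokine that is not an interferon but was listed with them, was the single tested gene of that group. It averaged 8.04 ± 0.994 CPM in siPUM2 and 5.76 ± 0.220 CPM in NC (SD, n = 3 each, 1.39-fold, adjusted p = 0.00127).

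Among 12 tested receptors and JAK-STAT genes 2 rose and 1 fell, so 25% were called, against 28.4% of all genes tested. Ifngr2, of the interferon gamma receptor, rose 1.16-fold (adjusted p = 0.00193) and Ifnar2, of the interferon alpha and beta receptor, rose 1.12-fold (adjusted p = 0.0248). Socs3, an inhibitor of cytokine signalling, averaged 25.7 ± 0.864 CPM in siPUM2 and 33.3 ± 2.0 CPM in NC and fell (1.30-fold lower, adjusted p = 1.46e-05). Ifnar1 was not called (log2 fold change -0.02, adjusted p = 0.799).

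Among 14 tested adaptors and kinases 3 rose and 1 fell (28.6% called, against 28.4% of all genes tested). Ticam1, the adaptor of TLR3, averaged 28.4 ± 1.6 CPM in siPUM2 and 24.2 ± 0.265 CPM in NC (1.17-fold, adjusted p = 0.00396). Unc93b1, which carries endosomal Toll-like receptors, rose 1.14-fold (adjusted p = 0.0113). Trim25, a ubiquitin ligase of the RIG-I pathway, averaged 4.90 ± 0.734 CPM in siPUM2 and 6.36 ± 0.372 CPM in NC (1.30-fold lower, adjusted p = 0.0219). Mavs was not called (log2 fold change 0.13, adjusted p = 0.113). Of 9 tested genes of double-stranded RNA editing and decay 1 rose and 1 fell (22.2% called, against 28.4% of all genes tested). Adarb1, an adenosine deaminase, averaged 9.13 ± 0.330 CPM in siPUM2 and 6.27 ± 1.13 CPM in NC (1.46-fold, adjusted p = 0.000368). The helicase gene Dhx9 was 1.08-fold lower (adjusted p = 0.00874).

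Of 37 other interferon-stimulated genes tested, 7 rose and 7 fell, so 37.8% were called, against 28.4% of all genes tested. Lgals9, a galectin, averaged 10.7 ± 0.367 CPM in siPUM2 and 5.69 ± 0.186 CPM in NC (1.88-fold, adjusted p = 1.88e-08). Ifitm3, which blocks viral entry at endosomes, averaged 235 ± 9.09 CPM in siPUM2 and 273 ± 8.13 CPM in NC (1.16-fold lower, adjusted p = 1.66e-06). Trim5, a restriction factor, rose 1.19-fold (adjusted p = 0.00141).

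Of 13 tested genes of MHC class I processing 1 rose and 2 fell (23.1% called, against 28.4% of all genes tested). The proteasome subunit gene Psmb10 rose 1.12-fold (adjusted p = 0.0104), the proteasome subunit gene Psmb8 was 1.25-fold lower (adjusted p = 0.0452) and the peptidase gene Erap1 was 1.06-fold lower (adjusted p = 0.0401). Of 9 tested NF-kB genes and cytokines 1 rose and 1 fell (22.2% called, against the same 28.4%). Icam1, an adhesion molecule, averaged 87.7 ± 1.47 CPM in siPUM2 and 74.8 ± 1.53 CPM in NC (1.17-fold, adjusted p = 2.11e-06). Tnfaip3 (A20), an inhibitor of NF-kB, averaged 7.0 ± 0.633 CPM in siPUM2 and 10.3 ± 0.465 CPM in NC (1.47-fold lower, adjusted p = 4.59e-05). Cxcl10, a chemokine induced by interferon, was at 0.392, 0.540 and 0.481 CPM in siPUM2, against 0.608, 0.497 and 0.522 CPM in NC. Its groups overlapped, and it was not called (log2 fold change -0.20, adjusted p = 0.729).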

How the data were processed

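RNA-seq libraries of 3 siPUM2 and 3 NC samples were grouped by their titles. The authors deposited raw whole-number counts per gene, and separately FPKM, that is fragments per length and depth, rounded at the second decimal. Per the submitters' processing notes, HISAT2, DESeq2 and the build mRatBN7.2 were used. The strand setting, annotation and counting program were not given in the sources used here. Polyadenylated RNA was captured and strand-marked libraries were sequenced from both ends, per the labels' protocols.

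Counts were tested with edgeR 4.0.16 in R 4.3.3 (quasi-likelihood, TMM scaling, filterByExpr, group as the sole term). This filter kept 12985 of 19825 genes, and the rest held 0.0465% of the counts. A gene was called where its p, after Benjamini-Hochberg adjustment across the genes tested, was under 0.05. SEs and 95% intervals were derived from the quasi-likelihood F statistic. Intervals on ratios of summed counts are exact binomial ones and cover counting error only. CPM values were TMM-scaled. FPKM was used for levels between genes, since it is per length.

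Genes were matched by the symbol in the table, and promoter windows by symbol to RefSeq (GRCr8). The 43 genes, their role groups and the other pathway genes were chosen with earlier results of these data known. Values by library are given for each of the 43 that was called or averaged at least 1 CPM, and the remainder by counts. Of the other pathway genes, the 3 called genes with the lowest p in each group were named, together with Cxcl10, Mavs and Ifnar1 (Ifnb1 and Ccl5, in the same rule, had no row, and another gene of the rule is not reported here). Alternatives were DESeq2 1.42.0, limma 3.58.1 voom, RLE, upper quartile or no scaling factors, 2 other filters, a replicate block, leaving out each library, and limma on log2(FPKM + 1) or log2(FPKM + 0.1). No library was counted as a copy of another: chi-square over degrees of freedom was 2.07 to 3.80 for pairs within a group and 12.5 to 14.0 between groups.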

Additional observations from a re-analysis of the deposited data

How the results depend on the processing

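The calls of Irf3, Isg20 and B2m held in all 16 alternatives, with log2 fold changes of 0.30 to 0.44, 0.35 to 0.54 and 0.20 to 0.23. Irf7 kept its call in 12 of 16, Parp9 in 9 of 16 and Ifit1 in 7 of 14 (DESeq2 gave it no adjusted p, and it was absent with at least 1 CPM required in 3 libraries). On log2(FPKM + 1) and log2(FPKM + 0.1) the adjusted p was 0.214 and 0.0847 for Irf7, 0.263 and 0.149 for Parp9 and 0.288 and 0.132 for Ifit1 (limma). Parp9 had an adjusted p of 0.105 by DESeq2, and Ifit1 of 0.0780 by limma voom. Of the 40 genes, 2 were called lower with RLE factors, upper quartile factors, no filter or the replicate block (of all genes 1774, 1956, 1718 and 1747). With DESeq2, log2(FPKM + 1) or log2(FPKM + 0.1), 0 of the 40 were called lower (of all genes 1388, 1086 and 1491). On log2(FPKM + 1), 3 were called higher, 1160 of all genes were called higher and 1086 lower, and of the other pathway genes 6 were called higher and 5 lower. Of the other pathway genes, 7 were called lower with DESeq2 and with log2(FPKM + 0.1), against 13 in the main fit. The number of all genes called lower fell too, from 1731 to 1388 and 1491. Leaving out 1 library at a time gave 3 to 7 of the 40 genes called higher and 0 to 2 lower, 1603 to 1798 of all genes higher and 1395 to 1740 lower, 11 to 17 other pathway genes higher and 7 to 14 lower, and a Pum2 log2 fold change of -0.88 to -0.84.

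The sign changed for genes that were not called. With 1 library left out, the log2 fold change ran from -0.50 to 0.13 for Ifit2, -0.058 to 0.25 for Isg15, -0.63 to 0.61 for Mx2, -0.24 to 0.023 for Ifih1, -0.018 to 0.057 for Tap1, -0.14 to 0.25 for Rtp4 and -0.0026 to 0.10 for Parp14. Tap1 was at -0.0013 with upper quartile factors. Rtp4 was at 0.027 with limma voom, 0.0045 with the replicate block, 0.0030 on log2(FPKM + 1) and 0.022 on log2(FPKM + 0.1). The cause was not tested. No scaling moved the median of all genes by more than 0.1 on the log2 scale.

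Whether libraries that share a replicate number were paired is not labelled. Over all genes tested, deviations of same-numbered libraries correlated at 0.0238, 0.0258 and 0.00373. Those of differently numbered siPUM2 and NC libraries correlated at -0.0471 to 0.0217. These values do not speak to the 40 genes alone, among which replicate 3 was often the highest library of its group. With the replicate block 6 of the 40 genes were called higher and 2 lower, and of all genes 1984 and 1747. Ifi27 was called with it (adjusted p = 0.00523).

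Depth limits the 15 untested genes most: the counting interval of the siPUM2 to NC ratio stayed under 2 for 7 of them, so for the other 8 the counts set no bound below a 2-fold rise. The siPUM2 library of 27704702 counts gives a floor of 0.108 CPM at 3 counts.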

Other observations

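Replicate 3 was the highest library of its group for many of these genes. In siPUM2, replicate 3 was the highest for 20 of the 40 genes with a row and for 15 of the 25 tested (60%), against 34.7% of all genes tested. In NC, replicate 3 was the highest for 20 of the 40 and for 16 of the 25 (64%), against 34.3% of all genes tested. The libraries carry no label that separates the third replicate from the others.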
